A study of Mus musculus with 8 samples.

Results

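Skin of DNCB-treated mice was compared with sham skin, gene by gene. The samples were chosen by their titles, which gave 5 of the 8 arrays of the series, namely 2 sham and 3 DNCB arrays. All samples were dorsal skin of Balb/c mice. The DNCB samples received 1-chloro-2,4-dinitrobenzene for 15 days and vehicle over the last 7 days. Sham samples are given as skin with neither DNCB nor HY209, although their protocol fields repeat the DNCB text, a doubt that touches every difference reported here. The 3 other arrays, from DNCB skin that also received HY209, entered the filter, the choice of each gene's probe set and the estimate of the spread. They did not enter the 2 group means compared. Nothing in the labels states that each array came from its own animal. Any p-value here therefore covers only the variation among these arrays, which may be technical.

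DNCB is a hapten that binds skin proteins. Repeated exposure of sensitized skin brings in leukocytes, opens and enlarges dermal vessels, thickens the epidermis and calls up enzymes that handle reactive chemicals. Keratinocyte stress genes and interferon-induced genes are known for their large changes in such skin, and the account here is centred on the vessels, matrix, immune cells, metabolism and growth signals around them.

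Values are log2 signals per probe set, on which a difference of 1 is a 2-fold change, and each difference is DNCB minus sham. Of 18193 genes named by the annotation, 12420 passed a filter on low signals. Array medians ran from 4.08 to 4.22 on this scale, and signals below them are dim, so that a difference from such a level is approximate. A gene dim on both sham arrays passed the filter only through DNCB or DNCB+HY209 arrays. A gene dim on all of those passed only through the sham arrays. The direction of such genes is partly built in. limma called 227 genes (1.83% of those tested) at an adjusted p under 0.05, of which 170 rose (1.37%) and 57 fell (0.459%). Counts of calls per list below stand against these shares, and a single call does not set a list apart. In all 227 the sham and DNCB arrays did not overlap. Absence of overlap alone was common with 2 arrays against 3: all DNCB arrays lay above both sham arrays for 2888 genes (23.3%) and below them for 1388 (11.2%). The median difference of all genes was 0.15. Among the genes called, 40 of those that rose had a sham mean below the median of the sham arrays, and 32 of those that fell had a DNCB mean below the median of the DNCB arrays. Not every such gene is marked where it is named below. The 40 include Podxl, Col12a1, Fbln5, Fli1, Dsc2, Aox4, Mlkl, Aif1 and Ms4a6b. The 32 include Tnxb, Pcolce2, Retnla, Il20ra and Slc26a7.

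Epidermal markers were bright on all 5 arrays. The basal keratin gene Krt5 had signals of 11.91 and 12.63 in sham and of 12.16, 12.78 and 12.40 in DNCB, and the basal epidermal regulator Trp63 lay between 8.45 and 9.16 on all 5 arrays. A quality measure moved with the groups. The mean signal of 18 spike-in control probe sets was 11.85 and 12.36 in sham against 11.62, 10.32 and 11.71 in DNCB, lower on every DNCB array. The 3' to 5' ratio of Gapdh, which rises with RNA degradation, was 4.46 and 2.81 in sham and 2.79, 2.10 and 7.34 in DNCB, with the highest value on DNCB array 3 and overlapping groups. A model with the spike-in level as a further term called 17 genes, and one with the Gapdh ratio 452. Single arrays mattered as much. Dropping sham array 1 left 40 calls, of which 31 were among the 227, and dropping sham array 2 left 15, of which 14 were. Dropping DNCB array 1, 2 or 3 gave 31, 30 or 256 calls, of which 27, 30 or 165 were among the 227. Dropping DNCB+HY209 array 1, 2 or 3 gave 352, 66 or 187 calls, of which 222, 66 or 175 were. Any call not described as kept was lost in at least 1 of these 8 fits.

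**Figure D1:**
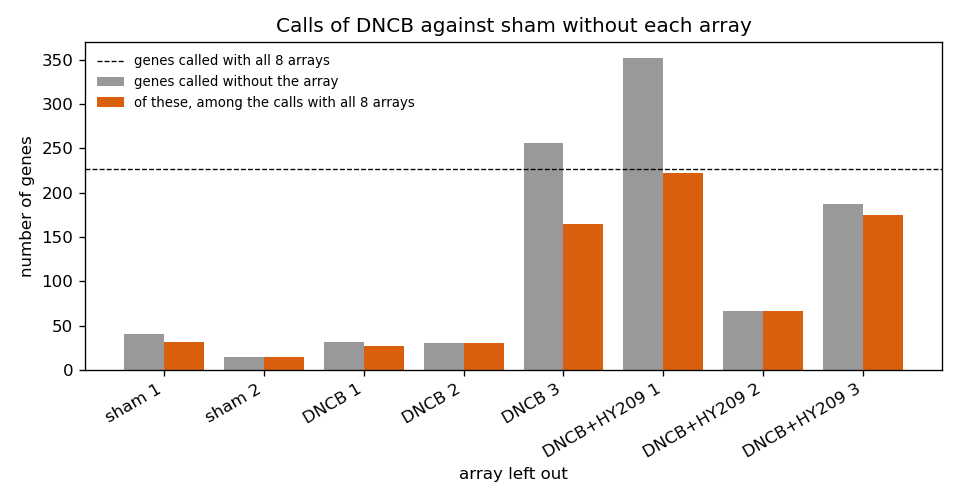
Number of genes called for DNCB against sham (vertical axis) when each of the 8 arrays was left out in turn (horizontal axis). Grey bars are all genes called, orange bars those also called with all 8 arrays, and the dashed line marks 227. The bars are lowest without sham array 2, at 15 and 14, and highest without DNCB+HY209 array 1, at 352 and 222.

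**Figure D2:**
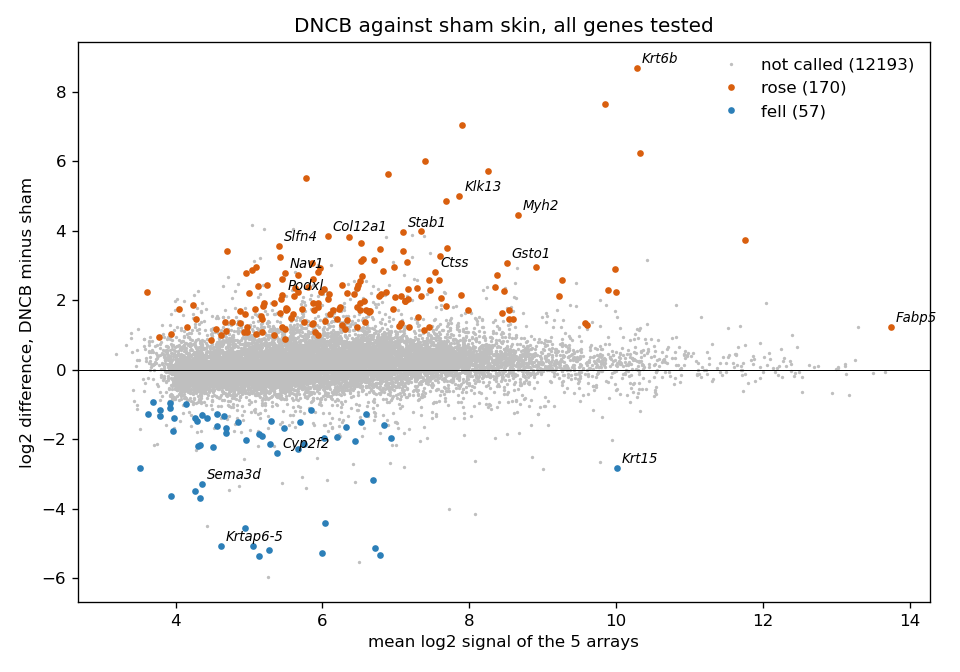
Log2 difference, DNCB minus sham, of each of the 12420 genes (vertical axis) against its mean log2 signal over the 5 arrays (horizontal axis). Orange points mark the 170 genes that rose, blue points the 57 that fell, and grey points the genes not called. Stab1 and Sema3d stand at 3.97 and -3.31.

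Of the 227 calls, 9 were kept without each of the 8 arrays in turn. They comprised 5 genes outside the keratinocyte stress and interferon lists, namely Stab1, Sema3d, Nav1, Klk13 and Myh2, together with Krt16, Krt6b, Rtp4 and Stfa3. Another 6 (Fscn1, Helz2, Oasl2, Pmepa1, Podxl and Sprr1b) lost their call only without sham array 2.

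Stab1 encodes stabilin-1, a scavenger receptor of tissue macrophages and of some endothelial cells. Sham arrays gave log2 signals of 4.69 and 4.75, against 8.53, 8.46 and 9.06 on the DNCB arrays. The groups were far apart, and both sham arrays nearly coincided. The difference was 3.97 (SE 0.29, adjusted p = 0.000688 by limma), and it ran from 3.78 to 4.08 without single arrays.

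Promoters of 9976 of the 12420 genes matched the RefSeq table of GRCm38.p6, and 9 short motifs were searched on both strands in the 250 bases before the start site. A match is a description of letters and no evidence of binding. For 4 genes whose groups are described here, the 130 bases up to the start site are shown where the gene appears, 5′ to 3′ on the gene's strand, with a motif in capitals. Stab1 has one match to the ETS motif CAGGAAG at -117 from its start, in chr14:31168642-31168771 (minus strand). That motif was in 9.7% of all promoters, in 13 of 120 of the genes that rose (10.8%) and in 4 of 17 of the endothelial and lymphatic list (23.5%), including those of Egfl7, Calcrl and Emcn. It was not the most frequent of the 9 there. The NF-kB motif GGGNNNTCC was in 7 of the 17 (41.2%), against 19.4% of all promoters.
Stab1: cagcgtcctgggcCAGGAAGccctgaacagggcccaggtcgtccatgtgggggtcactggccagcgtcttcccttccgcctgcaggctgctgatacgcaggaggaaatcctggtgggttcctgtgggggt

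Sema3d went the other way. The gene encodes a secreted semaphorin, a guidance cue for axons and endothelial cells. It was measured at 6.64 and 6.05 in sham and reached only 3.14, 2.98 and 2.99 in DNCB. All 3 DNCB values lay below the array medians, so the fall of 3.31 on the log2 scale (SE 0.22, adjusted p = 0.000431 by limma) is approximate. The call was lost under a stricter filter, which left the gene out, and its difference ran from -3.60 to -3.01 without single arrays.

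Nav1, a microtubule-binding protein of migrating neurons, had signals of 3.99 and 3.64 in sham and of 6.27, 6.85 and 6.68 in DNCB. The sham level was below the array medians. Its difference was 2.79 (SE 0.24, adjusted p = 0.00203), and 1.04 by its other probe set. Klk13, a secreted serine protease of stratified epithelia, went from 4.76 and 4.96 in sham to 9.78, 10.37 and 9.44 in DNCB, a difference of 5.00 (SE 0.47, adjusted p = 0.00343). In the DNCB+HY209 arrays Stab1 lay between 7.94 and 8.70, Sema3d between 2.87 and 3.14, Nav1 between 6.18 and 6.48, and Klk13 between 8.57 and 10.28.

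Myh2, the myosin heavy chain of fast oxidative muscle fibres, had signals of 5.32 and 6.67 in sham and of 10.27, 11.26 and 9.78 in DNCB. It rose by 4.45 (SE 0.48, adjusted p = 0.00639), and was no longer called with the spike-in term. It was the only called member of the 29 skeletal muscle genes tested, whose median difference was 0.66. That median was -0.07 without sham array 1 and 1.59 without sham array 2. The mean signal of the list was 7.66 and 9.13 in sham and 9.95, 9.70 and 8.19 in DNCB, so the groups overlapped. Myh1, another fast myosin, was at 10.47 and 13.33 in sham and at 11.81, 12.79 and 12.86 in DNCB. Muscle signal thus differed between arrays of 1 group, and its part in the rise of Myh2 was not tested.

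**Figure D3:**
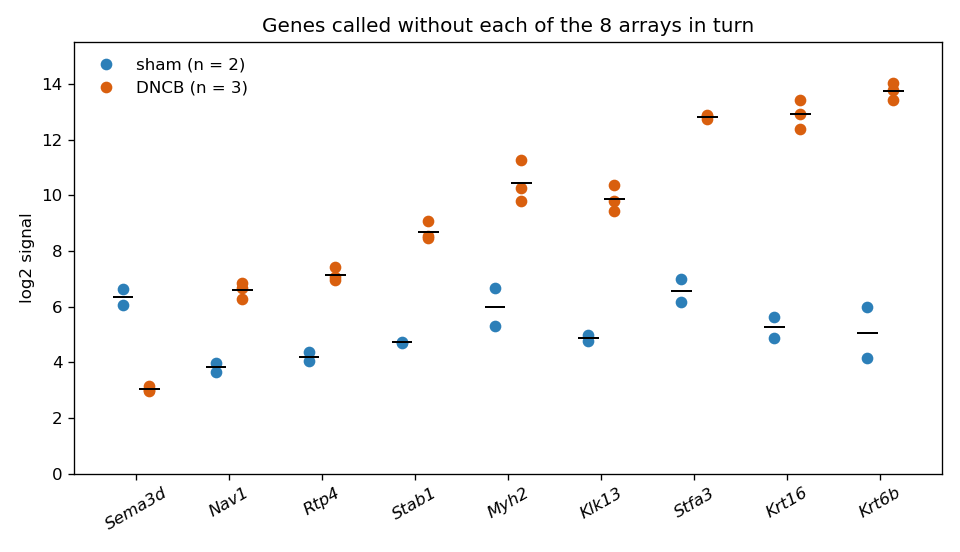
Log2 signal (vertical axis) of the 9 genes called without each of the 8 arrays in turn. Blue points are the 2 sham arrays, orange points the 3 DNCB arrays, and black lines the group means. Sema3d is the only gene of the 9 with DNCB below sham, and no gene has overlapping groups, as holds for every called gene.

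The endothelial and lymphatic genes formed the list with the highest median outside the lists of keratinocyte stress and interferon response. The lymphatic genes Lyve1 and Prox1 lay below the filter and were not tested. Of 30 endothelial and lymphatic genes tested 10 rose and 0 fell, with a median of 1.2 against 0.15 for all genes, and in 27 of the 30 all DNCB arrays lay above both sham arrays, against 23.3% of all genes. Members dim on both sham arrays, Emcn, Tie1 and Calcrl among them, passed the filter only through DNCB or DNCB+HY209 arrays. Part of these counts and of the median is therefore built in. In whole skin, more cells of a type and more RNA per cell cannot be told apart. Aplnr, the apelin receptor of sprouting endothelium, rose most. Sham arrays gave 6.31 and 4.95 and DNCB arrays 9.33, 9.25 and 8.14, with a difference of 3.27 (SE 0.52, adjusted p = 0.0245), or 1.46 by its other probe set. Cdh5, the cadherin of endothelial junctions, was at 5.14 and 4.90 in sham and at 7.48, 7.57 and 6.60 in DNCB. DNCB array 3 was the lowest of its group for both genes. The diaphragm protein gene Plvap rose by 1.83 (SE 0.36), the endoglin gene Eng by 1.24 (SE 0.22) and the tight junction gene Cldn5 by 1.03 (SE 0.21). Further members that rose were Pdpn, Emcn, Icam1, Egfl7 and Calcrl, by 1.22 to 1.98, of which Emcn, Icam1 and Calcrl had sham means below the array medians. The receptor gene Tie1 and the adhesion gene Esam differed by 1.66 (SE 0.35) and 1.19 (SE 0.28), with adjusted p-values of 0.0563 and 0.0792, so that neither was called although the groups did not overlap. The count of 10 was 1 without sham array 1, 0 without sham array 2, DNCB array 1, DNCB array 2 or DNCB+HY209 array 2, and 17 without DNCB array 3. The median stayed between 1.11 and 1.37 over these fits, and was 0.96, with 0 called, with the spike-in term.

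Outside that list, 16 further vascular genes were picked from the called genes after their values were seen, with differences of 1.02 to 2.45 by the brightest probe set of each. The lowest differences by other probe sets were -0.04 for Igfbp7, 0.26 for Arap3 and 0.46 for Mmrn2, and the highest was 2.71 for Cd93. Dropping sham array 1 or DNCB array 1 kept 1 of these 16 calls, dropping sham array 2 kept 0, dropping DNCB array 2 kept 2 and dropping DNCB+HY209 array 2 kept 5. Podxl, a sialomucin of the luminal surface, was at 4.28 and 4.05 in sham and at 6.40, 6.22 and 6.33 in DNCB, a difference of 2.15 (SE 0.22, adjusted p = 0.00494). Cd93, a lectin-like receptor of endothelium and myeloid cells, went from 4.87 and 4.71 to 7.46, 7.37 and 6.89. Spread within each group was small for both genes. Nos3, the endothelial nitric oxide synthase, rose by 1.48 (SE 0.26), and the ETS transcription factor genes Ets1 and Fli1, which act in endothelium and in lymphocytes, rose by 2.10 (SE 0.37) and 1.02 (SE 0.21), while the 3 probe sets of Ets1 ran from 0.62 to 2.41. Thbd, whose product thrombomodulin turns thrombin towards protein C, had signals of 4.29 and 4.37 in sham and of 7.80, 8.59 and 7.56 in DNCB. Its difference of 3.65 (SE 0.59, adjusted p = 0.0266) was the only call among 20 coagulation and plasminogen genes, whose median was 0.52. It was not called without either sham array, DNCB array 1 or DNCB array 2. The plasminogen activator gene Plau had a difference of 2.55 (SE 0.61, adjusted p = 0.0873) and was not called.

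Mural cells wrap blood vessels. Of 16 pericyte and smooth muscle genes 3 rose and 0 fell, with a median of 0.80. Pdgfrb, the receptor through which endothelium recruits pericytes, was at 4.84 and 4.43 in sham and at 8.0, 8.36 and 7.09 in DNCB. Its difference was 3.18 (SE 0.50, adjusted p = 0.0242) by the brighter of its probe sets and 1.22 by the other. Rgs5, a regulator of G protein signalling in pericytes, was at 5.97 and 4.62 in sham and at 8.78, 8.41 and 7.98 in DNCB, with 1.64 to 3.10 over its probe sets. Mcam, an adhesion molecule of pericytes and endothelium, rose by 1.70 (SE 0.26). The count of 3 was 1 without sham array 1 or DNCB+HY209 array 2, 0 without sham array 2, DNCB array 1 or DNCB array 2, and 4 without DNCB array 3.

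**Figure D4:**
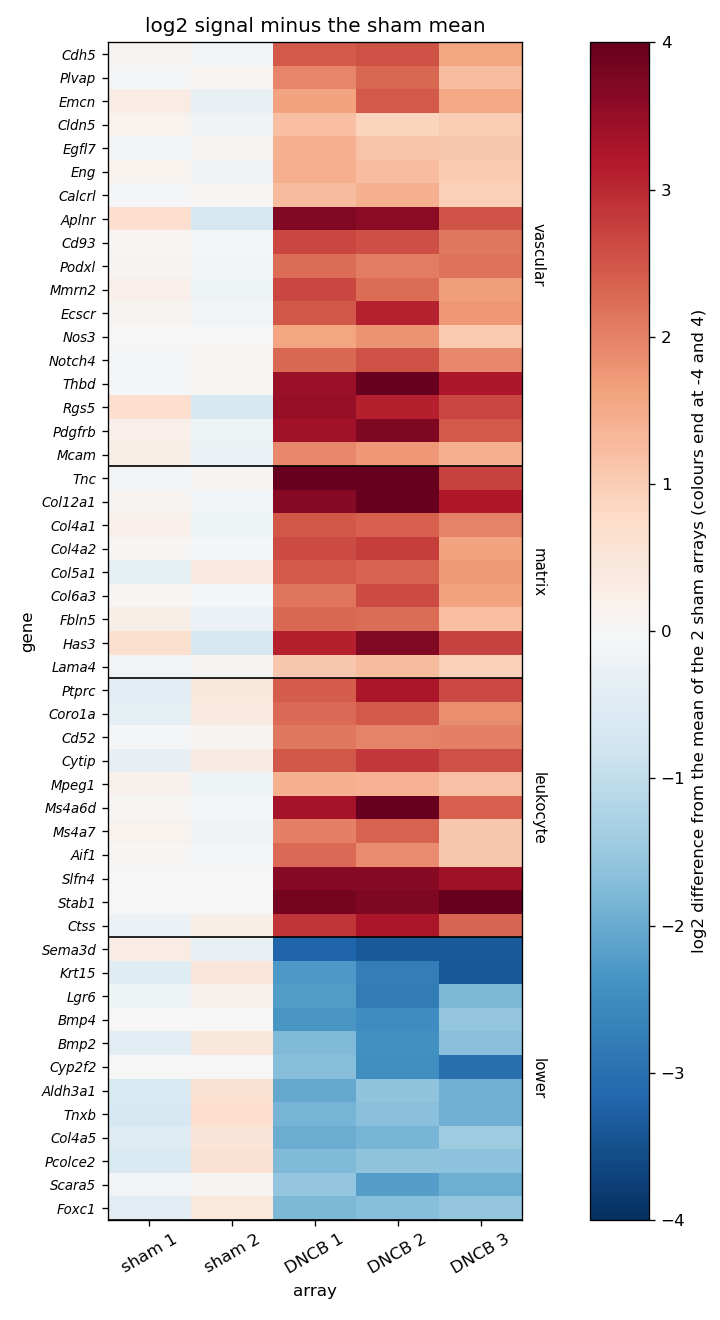
Log2 signal on each of the 5 arrays (columns) minus the mean of the 2 sham arrays, for called genes (rows) of vessels and mural cells, matrix, leukocytes, and a set that fell. Red is above the sham mean and blue below it, with colours ending at -4 and 4. DNCB array 3 is the palest of its group for many vascular, matrix and leukocyte genes, and Stab1 is an exception.

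The extracellular matrix list had 8 of 41 genes that rose and 0 that fell, with a median of 0.74. Tnc, encoding the wound glycoprotein tenascin C, had signals of 4.83 and 5.05 in sham and of 9.0, 10.20 and 7.63 in DNCB, and its difference was 4.0 (SE 0.71, adjusted p = 0.0334). Col12a1, a collagen that lies on fibril surfaces, was at 3.88 and 3.65 in sham and at 7.39, 8.47 and 6.96 in DNCB. Both genes were highest on DNCB array 2. The difference of Col12a1 was 3.84 (SE 0.72) by its brighter probe set but 0.54 by the other. Has3, a hyaluronan synthase of the epidermis, rose by 3.17 (SE 0.52), Col5a1 by 2.17 (SE 0.39; 0.47 to 2.17 over 3 probe sets), Col6a3 by 2.13 (SE 0.39) and the elastic fibre gene Fbln5 by 1.91 (SE 0.33). The collagenase gene Mmp13 went from 2.95 and 2.60 in sham to 6.27, 8.13 and 6.06 in DNCB, with a difference of 4.04 (SE 0.93, adjusted p = 0.075) that was not called. The count of 8 was 0 without either sham array, DNCB array 1 or DNCB array 2, 2 when DNCB+HY209 array 2 was dropped and 13 when DNCB array 3 was, with medians from 0.61 to 0.92.

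Basement membrane collagen IV genes moved apart. Col4a1 and Col4a2, which encode the chains of vessel and general basement membranes, lie head to head on chromosome 8 and rose together. Col4a1 was at 7.30 and 6.91 in sham and at 9.60, 9.49 and 9.08 in DNCB, a difference of 2.28 (SE 0.31, adjusted p = 0.0173). For Col4a2 the signals were 5.82 and 5.72 against 8.37, 8.52 and 7.37, a difference of 2.32 (SE 0.38, adjusted p = 0.0274). Col4a5, a chain found in epidermal basement membranes, was at 4.50 and 5.54 in sham and at 3.04, 3.15 and 3.59 in DNCB, and fell by 1.76 (SE 0.32, adjusted p = 0.036) to below the array medians. The collagen organisers Tnxb and Pcolce2 fell by 1.82 (SE 0.35) and 1.68 (SE 0.31). Col4a5, Tnxb and Pcolce2 were named after their values were seen.

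Leukocyte genes rose with the myeloid markers. Of 25 macrophage and monocyte genes 5 rose and 1 fell, with a median of 1.14. Ms4a6d, a four-span membrane protein of macrophages, was at 3.50 and 3.44 in sham and at 6.79, 7.53 and 5.85 in DNCB, a difference of 3.25 (SE 0.60, adjusted p = 0.0365). The sham signals lay below the array medians. Its relatives Ms4a7 and Ms4a6b rose by 1.82 (SE 0.37) and 1.70 (SE 0.31), the calcium-binding gene Aif1 by 1.75 (SE 0.35), and Clec7a, the beta-glucan receptor dectin-1, by 1.19 (SE 0.24). Retnla, a secreted product of alternatively activated macrophages and of fat, was at 5.01 and 5.26 in sham and at 4.06, 3.49 and 3.95 in DNCB, and fell by 1.30 (SE 0.25, adjusted p = 0.0414). No gene of this list was called as higher without either sham array, DNCB array 1, DNCB array 2 or DNCB+HY209 array 2, and 8 were without DNCB array 3.

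Outside the fixed lists, 10 further leukocyte genes were picked from the called genes after their values were seen, with differences of 1.0 to 3.56 by the brightest probe set of each. Other probe sets gave from 0.07 for Gimap4 to 2.41 for Coro1a. Dropping either sham array kept 0 of these calls. Dropping DNCB array 1 or 2 kept 1 or 2 of them, and dropping DNCB+HY209 array 2 kept 4. Ptprc, the leukocyte common antigen CD45, was at 2.83 and 3.75 in sham and at 5.70, 6.57 and 5.93 in DNCB, a difference of 2.77 (SE 0.50, adjusted p = 0.0365). Slfn4, a myeloid gene of the Schlafen family, went from 3.29 and 3.26 to 6.91, 6.93 and 6.65. In both genes the sham level was below the array medians. The actin regulator Coro1a rose by 2.19 (SE 0.42) and the surface peptide gene Cd52 by 2.04 (SE 0.38). Samhd1, a nucleotide hydrolase of myeloid cells that is also induced by interferon, was at 5.37 and 5.82 in sham and at 9.09, 9.38 and 8.84 in DNCB, while its 5 probe sets gave differences from 0.48 to 3.51.

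Of 12 neutrophil genes tested 2 rose and 0 fell, with a median of 0.40, and in 7 of the 12 all DNCB arrays lay above both sham arrays, against 23.3% of all genes. The 2 were S100a8 and S100a9, subunits of calprotectin, which stressed keratinocytes also express and which the keratinocyte stress list holds too. S100a8 was at 5.22 and 4.42 in sham and at 10.68, 11.30 and 9.66 in DNCB, a difference of 5.73 (SE 0.70, adjusted p = 0.012). Neither was called without sham array 1, sham array 2 or DNCB array 1, and Mmp9, a gelatinase of neutrophil granules, had a difference of 1.71 (SE 0.55, adjusted p = 0.18). Of 34 T, NK and B cell genes listed 11 were bright enough to be tested and 0 were called, with a median of -0.17 and a mean signal of 5.25 and 5.42 in sham and 5.40, 5.03 and 5.31 in DNCB. Only 4 of 15 mast cell genes could be tested, 0 were called, and their median was 0.07. Of 26 chemokine and receptor genes the homing receptor gene Cxcr4 alone rose, by 1.74 (SE 0.34), from a sham level below the array medians. For 26 of 49 cytokine receptor and feedback genes all DNCB arrays lay above both sham arrays, and for 5 below, against 23.3% and 11.2% of all genes. Of the 49, Il13ra1 rose by 2.43 (SE 0.49; 1.09 to 2.43 over 4 probe sets) and Il20ra fell by 1.33 (SE 0.26). Leaving out either sham array, DNCB array 1, DNCB array 2 or DNCB+HY209 array 2 ended all 3 of these calls.

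Lysosomal proteases and antigen processing followed. Among 38 lysosome, cathepsin and uptake genes 4 rose (Stab1, Ctss, Ctsc and Tcirg1) and 0 fell, with a median of 0.58. Ctss, the cathepsin that trims the invariant chain from MHC class II molecules, was at 5.63 and 6.07 in sham and at 8.70, 9.13 and 8.16 in DNCB, a difference of 2.81 (SE 0.37, adjusted p = 0.0156). Ctsc, which activates granule serine proteases, was at 8.12 and 7.30 in sham and at 9.99, 10.79 and 10.09 in DNCB. The groups were well apart for both. Fscn1, an actin bundler of mature dendritic cells and migrating cells, had signals of 7.95 and 7.94 in sham and of 10.01, 10.20 and 9.99 in DNCB, with a difference of 2.11 (SE 0.23, adjusted p = 0.00593) that its 3 probe sets gave as 0.52 to 2.11. Ctss and Fscn1 were the 2 genes called of 17 in the antigen presentation list, and Psmb10, an immunoproteasome subunit, rose by 1.29 (SE 0.23) as the only call of 15 MHC class I supply genes. The 2 antigen presentation calls were 0 without sham array 2 and 1 without sham array 1 or DNCB array 1, and Psmb10 was not called without either sham array, any 1 DNCB array or DNCB+HY209 array 2. The lysosomal count of 4 was 1 without either sham array or DNCB array 1, and 2 without DNCB array 2 or DNCB+HY209 array 2. The promoter of Ctss holds the interferon element GAAANNGAA, in capitals, at -21 in chr3:95526656-95526785 (plus strand). This element was in 6.11% of all promoters, in 23 of 120 of the genes that rose (19.2%) and in 6 of 48 of those that fell (12.5%). It was in 15 of 26 of the interferon list (57.7%). The 23 include 8 of the 9 interferon list genes that rose and had a promoter.
Ctss: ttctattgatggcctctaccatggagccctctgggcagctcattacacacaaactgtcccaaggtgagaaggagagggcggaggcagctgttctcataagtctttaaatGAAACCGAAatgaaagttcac

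In the epidermis, channels between cells rose. The connexin genes Gjb2 and Gjb6, neighbours on chromosome 14 whose products form gap junctions of keratinocytes, were among 4 of 33 junction genes that rose, with 0 that fell. Their median was 0.39, or 0.14 after quantile normalization and -0.04 with the spike-in term. Gjb6 was at 6.18 and 3.88 in sham and at 8.31, 9.19 and 7.90 in DNCB, a difference of 3.43 (SE 0.68, adjusted p = 0.0439). Gjb2 was at 9.27 and 7.24 in sham and at 10.89, 11.81 and 10.76 in DNCB. Both differed between the sham arrays by more than 2 log2 units, with sham array 1 higher. The desmosomal cadherin gene Dsc2 rose by 2.74 (SE 0.54), or 1.23 by its other probe set, whereas the tight junction gene Ocln was at 5.43 and 4.76 in sham and at 4.09, 4.05 and 4.07 in DNCB, without a call (difference -1.03, SE 0.26, adjusted p = 0.0995). Cldn5, described with the vessels, was the fourth. The count of 4 fell to 0 when sham array 2, DNCB array 1, DNCB array 2 or DNCB+HY209 array 2 was dropped, to 2 when sham array 1 or DNCB+HY209 array 3 was, and to 1 when DNCB array 3 was. It was 6 without DNCB+HY209 array 1. Pla2g4e, a phospholipase A2 of stratified epithelium, went from 4.37 and 4.91 to 7.48, 8.66 and 7.20 and was the only call of 38 barrier lipid and lipoxygenase genes, with a difference of 3.14 (SE 0.47, adjusted p = 0.0219). That single call of the list stands beside 1.37% of all genes that rose. Without either sham array or DNCB array 1 Pla2g4e was not called. Slc10a6, a carrier of sulfated steroids, and Rptn, a cornified envelope gene, rose by 3.83 (SE 0.66) and 5.51 (SE 0.96) from below the array medians, but the other probe set of Rptn gave -0.34.

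Enzymes of chemical defence moved in both directions, and as lists they did not stand out. Of 29 glutathione genes 2 rose and 0 fell, with a median of -0.05, below that of all genes. Among all genes 1.37% rose and 0.459% fell. Of 19 antioxidant targets of the transcription factor NRF2 1 rose and 1 fell, with a median of 0.45. Gsto1, a glutathione transferase of the omega class, was at 6.92 and 6.41 in sham and at 9.36, 10.31 and 9.53 in DNCB, a difference of 3.07 (SE 0.54, adjusted p = 0.0331). Mgst2, a microsomal relative, rose by 2.55 (SE 0.52), and the aldo-keto reductase gene Akr1b8 by 2.35 (SE 0.47). Picked after their values were seen, the aldehyde oxidase Aox4, the carboxylesterase Ces2g and the xanthine oxidoreductase Xdh rose by 2.96 (SE 0.54), 2.70 (SE 0.46) and 1.66 (SE 0.33). Cyp2f2, a cytochrome P450 that activates aromatic compounds, was at 6.81 and 6.82 in sham and at 5.10, 4.38 and 3.81 in DNCB, and fell by 2.38 (SE 0.38, adjusted p = 0.0243). The aldehyde dehydrogenase gene Aldh3a1 fell by 1.86 (SE 0.34). Both glutathione calls ended without either sham array, DNCB array 1, DNCB array 2 or DNCB+HY209 array 2, and 1 was left without DNCB array 3. Akr1b8 was not called without either sham array, DNCB array 1, DNCB array 2, DNCB+HY209 array 2 or DNCB+HY209 array 3, and Aldh3a1 without sham array 2, any 1 DNCB array or DNCB+HY209 array 2. Metallothionein, iron and copper genes had 0 called of 19, with a median of -0.16.

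Glucose uptake and hypoxia genes had a median of 1.00 over 27 genes tested, of which 3 rose and 0 fell. All 3 DNCB arrays lay above both sham arrays for 15 of the 27, against 23.3% of all genes. Slc2a1, the glucose transporter GLUT1, was at 7.98 and 9.33 in sham and at 10.70, 10.68 and 11.28 in DNCB, a difference of 2.23 (SE 0.40, adjusted p = 0.036). Car12, a membrane carbonic anhydrase, was at 5.17 and 5.06 in sham and at 7.71, 8.0 and 8.16 in DNCB, but its probe sets gave 0.50 and 2.84. Ddit4, an inhibitor of the growth kinase mTOR, rose by 1.17 (SE 0.19). Neither Hif1a, the hypoxia-inducible factor subunit, nor the hexokinase gene Hk2 was called, although they differed by 1.82 (SE 0.40) and 1.74 (SE 0.38), with adjusted p-values of 0.062 and 0.0612. Hif1a had sham signals of 8.36 and 8.37 and DNCB signals of 10.17, 10.33 and 10.07. Dropping sham array 1 left 0 calls, and dropping sham array 2, DNCB array 1, DNCB array 2 or DNCB+HY209 array 2 left 1. The count was 2 and 7 when DNCB+HY209 arrays 3 and 1 were dropped. The list median was 0.74 to 1.17 over these fits and 0.46 with the spike-in term. The hypoxia element core ACGTG was in 21.2% of all promoters, in 20 of 120 of the genes that rose (16.7%) and in 13 of 25 of this list (52%). In Slc2a1 it lies at -36, in capitals, within chr4:119108615-119108744 (plus strand).
Slc2a1: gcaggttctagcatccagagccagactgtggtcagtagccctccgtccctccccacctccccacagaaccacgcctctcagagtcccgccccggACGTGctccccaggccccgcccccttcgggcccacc

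Among retinoid genes, 2 of 23 rose and 0 fell, against 1.37% and 0.459% of all genes, with a median of 0.12. Crabp1, a cellular carrier of retinoic acid, was at 5.33 and 5.67 in sham and at 8.21, 6.94 and 7.69 in DNCB, a difference of 2.11 (SE 0.35, adjusted p = 0.0295). Fabp5, an epidermal carrier of fatty acids and retinoic acid, was already bright in sham, at 13.21 and 12.79, and was at 14.25, 14.20 and 14.27 in DNCB, a difference of 1.25 (SE 0.18, adjusted p = 0.018) or 2.61 by its other probe set. The nuclear receptor gene Ppard, named after its values were seen, rose by 2.23 (SE 0.42). Without sham array 2 or DNCB array 1 neither Crabp1 nor Fabp5 was called, and 1 of them was without sham array 1, DNCB array 2 or DNCB+HY209 array 2. Crabp1 also lost its call after quantile normalization.

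Signals that pattern the skin were among the genes that fell. Of 34 TGF-beta, BMP and activin genes 2 fell and 0 rose, against 0.459% and 1.37% of all genes. Both that fell encode bone morphogenetic proteins, which restrain hair follicle stem cells and promote epidermal differentiation. Bmp4 was at 7.00 and 7.05 in sham and at 4.70, 4.54 and 5.44 in DNCB, a fall of 2.13 (SE 0.43, adjusted p = 0.0457). Bmp2 was at 7.67 and 8.56 in sham and at 6.33, 5.69 and 6.43 in DNCB, a fall of 1.96 (SE 0.34, adjusted p = 0.0304). The groups did not overlap for either, as in every called gene. Id2, a target of BMP signalling, was at 8.72 and 8.48 in sham and at 6.26, 6.43 and 7.24 in DNCB, and was not called (adjusted p = 0.0712). Neither BMP gene was called without sham array 1, sham array 2, DNCB array 1, DNCB array 2 or DNCB+HY209 array 2. The median of the list was 0.15.

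Of 34 Wnt and Notch genes 2 fell and 1 rose, with a median of -0.26, and all DNCB arrays lay below both sham arrays for 12 of them, against 11.2% of all genes. Lgr6, an R-spondin receptor of epithelial stem cells in the upper hair follicle, was at 6.85 and 7.22 in sham and at 4.79, 4.23 and 5.24 in DNCB, a fall of 2.28 (SE 0.33, adjusted p = 0.0187). The Wnt receptor gene Fzd7 fell by 1.27 (SE 0.22), and Notch4, a Notch receptor of endothelium, rose by 2.25 (SE 0.32) from a sham level below the array medians. Krt15, a keratin of basal cells and of follicle bulge stem cells, was at 11.23 and 12.18 in sham and at 9.40, 8.93 and 8.31 in DNCB, a fall of 2.82 (SE 0.52, adjusted p = 0.0365). Krt15, the Wnt receptor gene Fzd3, which fell by 1.52 (SE 0.27) or by 0.32 by its other probe set, and the forkhead factor gene Foxc1, which fell by 1.69 (SE 0.27), were picked after their values were seen. The Wnt and Notch calls were 0 in either direction without sham array 1, sham array 2, DNCB array 1 or DNCB array 2.

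Among 34 semaphorin, neuropilin and axon guidance genes 3 rose and 1 fell, with a median of 0.10. Beside the fall of Sema3d, the transmembrane semaphorin gene Sema6d rose by 1.75 (SE 0.34), Sema7a, a membrane-anchored member that acts on myeloid cells, by 1.00 (SE 0.20), and Plxnd1, a semaphorin receptor of endothelium, by 1.40 (SE 0.22). Plxnd1 was at 5.29 and 5.09 in sham and at 6.74, 6.67 and 6.36 in DNCB. All 3 rises were lost without either sham array, DNCB array 1, DNCB array 2 or DNCB+HY209 array 2, and 2 of them without DNCB+HY209 array 3, and Sema7a was not called without any 1 of the 8 arrays. Sema3d kept its call in each of these fits.

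Further genes among the 10 largest decreases named by rule had varied roles. Scara5, a ferritin receptor of stromal cells, was at 6.22 and 6.42 in sham and at 4.76, 4.12 and 4.38 in DNCB, a fall of 1.90 (SE 0.24, adjusted p = 0.0128). Fcgbp, a mucus-associated protein, fell by 2.05 (SE 0.28), the anion exchanger gene Slc26a7 by 2.16 (SE 0.32) and the progestin receptor gene Paqr7 by 1.93 (SE 0.35). None of the 4 was called without sham array 2. Scara5 and Slc26a7 also lost their calls without sham array 1, Fcgbp and Paqr7 without DNCB array 1, and Fcgbp, Slc26a7 and Paqr7 when DNCB array 2 was dropped. Paqr7 was not called without DNCB+HY209 array 2.

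Hair follicle genes had the lowest median of the lists, at -1.97, with 7 of 37 that fell and 0 that rose. The sham arrays differed between themselves, and this limits the comparison. The mean signal of the list was 8.94 and 6.61 in sham and 4.96, 5.08 and 6.57 in DNCB, so that sham array 2 and DNCB array 3 nearly coincided. The median was -0.87 without sham array 1 and -2.99 without sham array 2. None of the 7 calls was made when sham array 1, DNCB array 1, DNCB array 2 or DNCB+HY209 array 2 was dropped. The count was 1 on dropping sham array 2, 3 on dropping DNCB array 3 and 4 on dropping DNCB+HY209 array 3. Krtap6-5 and Krt75 were picked after their values were seen. Krtap6-5, a keratin-associated protein of the hair shaft, was at 8.53 and 6.77 in sham and at 2.60, 2.61 and 2.55 in DNCB, and fell by 5.06 (SE 0.76, adjusted p = 0.0219) to well below the array medians. Krt75, a keratin of the follicle's companion layer, was at 8.16 and 9.04 in sham and at 5.33, 4.57 and 6.35 in DNCB. The pigment cell genes, which follow the hair cycle, had 0 called of 13, a median of -1.0, and mean signals of 7.34 and 5.46 in sham and of 4.94, 5.25 and 6.15 in DNCB. The part of the hair cycle in the falls of Lgr6, Krt15, Bmp2, Bmp4 and Sema3d was not tested. The TATA box letters TATAAA were in 7.36% of all promoters, in 17 of 48 of the genes that fell (35.4%), in 21 of 120 of those that rose (17.5%) and in 18 of 29 hair follicle genes (62.1%), many of them keratin-associated genes of related sequence. In Krtap6-5 they lie at -32, in capitals, within chr16:89047900-89048029 (minus strand).
Krtap6-5: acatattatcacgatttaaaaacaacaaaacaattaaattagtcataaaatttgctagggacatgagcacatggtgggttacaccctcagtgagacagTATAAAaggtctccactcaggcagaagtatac

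**Figure D5:**
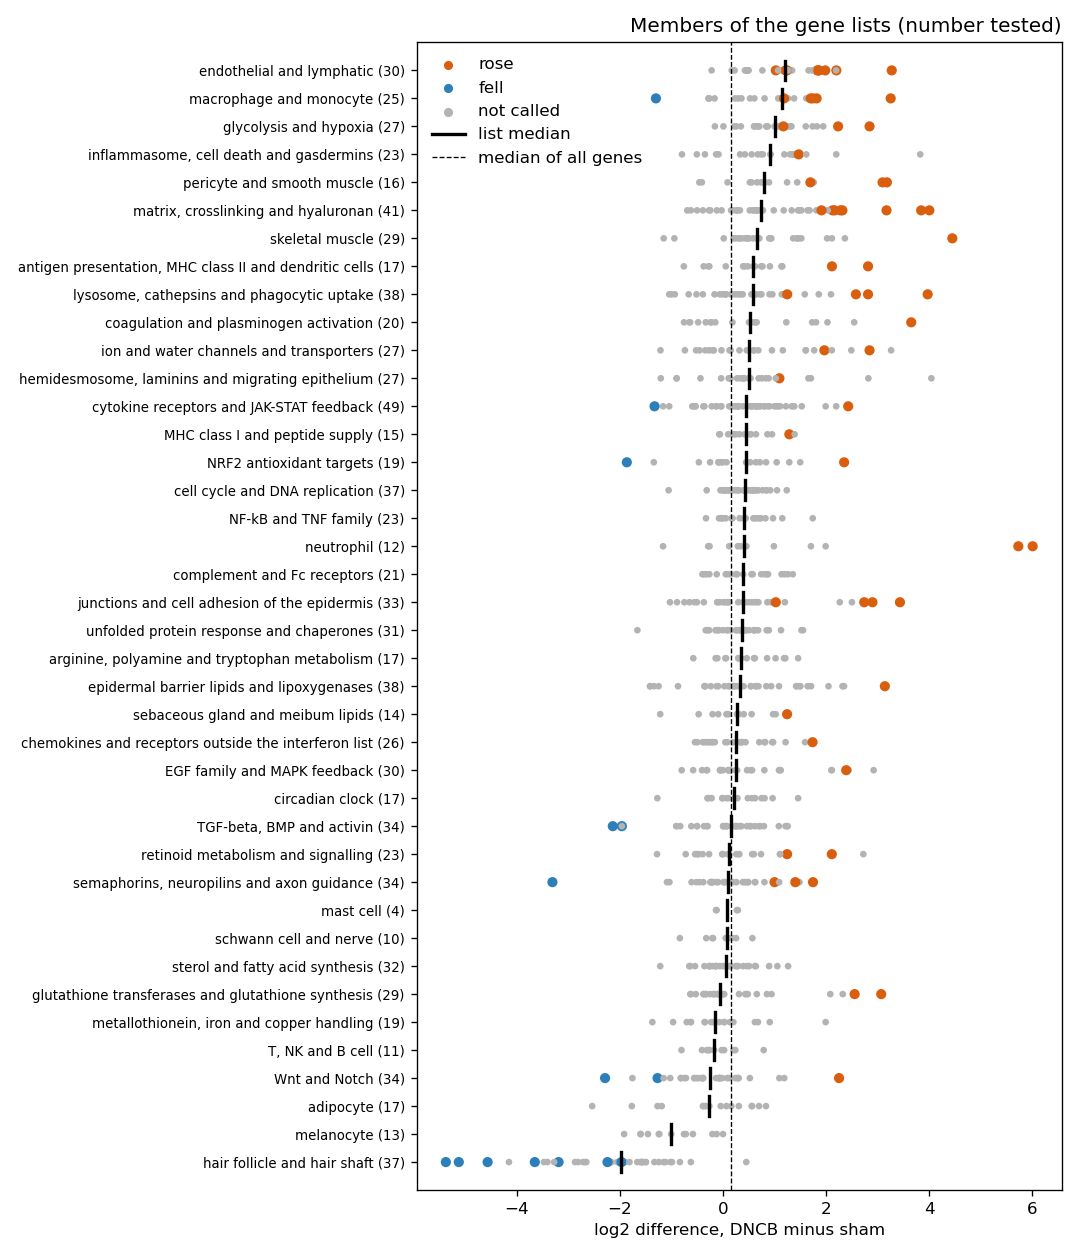
Log2 difference, DNCB minus sham (horizontal axis), of each tested member of 40 gene lists (rows, with the number tested). Orange and blue points are genes that rose and fell, grey points are not called, black bars are list medians and the dashed line is the median of all genes, 0.15. Medians run from 1.2 for endothelial and lymphatic genes to -1.97 for hair follicle genes.

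Lists without any call were complement and Fc receptors (0 of 21, median 0.39), cell cycle and DNA replication (0 of 37, median 0.42), the unfolded protein response (0 of 31, median 0.38), sterol and fatty acid synthesis (0 of 32, median 0.06), NF-kB and the TNF family (0 of 23, median 0.41), arginine, polyamine and tryptophan metabolism (0 of 17, median 0.35), the circadian clock (0 of 17, median 0.21), adipocytes (0 of 17, median -0.26) and Schwann cells and nerve (0 of 10, median 0.07). Adipoq, the adiponectin gene of fat cells, was at 8.13 and 6.76 in sham and at 6.08, 5.22 and 3.43 in DNCB without a call (adjusted p = 0.16). Slc2a4, of the same list, went the other way by 0.84 (SE 0.24), also without a call. Of the 17 adipocyte genes, 4 had all DNCB arrays above both sham arrays and 4 had all below. The shares of all genes were 23.3% and 11.2%. A miss at this number of arrays does not show that such genes were unchanged. In the NF-kB and TNF family all DNCB arrays lay above both sham arrays for 12 of 23 genes, and below them for 1. In other lists single genes rose, against 1.37% of all genes, so that these calls do not set the lists apart. They were the necroptosis effector Mlkl (1.47, SE 0.27, of 23 cell death genes with a median of 0.92), the growth factor feedback gene Phlda1 (2.39, SE 0.44, of 30 EGF family genes) and the laminin gene Lama4 (1.10, SE 0.18, of 27 hemidesmosome and laminin genes). All DNCB arrays lay above both sham arrays for 16 of the 23, 12 of the 30 and 10 of the 27, against 23.3% of all genes. Without either sham array, DNCB array 1 or DNCB array 2 each of these 3 lists had 0 called. The phosphate carrier gene Slc20a1 and Car12 rose among 27 ion channel and transporter genes, and neither was called without either sham array.

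Called genes that follow each other among the tested protein-coding genes, in the RefSeq order of GRCm38.p6, formed 13 runs. Genes that were not tested were skipped and may lie between them. The longest was 9 keratin-associated protein genes on chromosome 11 that fell together. Apart from the keratin and S100 genes, the pairs that rose were Thbd and Cd93 on chromosome 2, Fli1 and Ets1 on chromosome 9, Nt5dc2 and Stab1 and Gjb2 and Gjb6 on chromosome 14, Col4a1 and Col4a2 on chromosome 8, Gbp7 and Gbp3 on chromosome 3, and Ms4a7 with Ms4a4c and Ms4a6b with Ms4a6d on chromosome 19. Probes of keratin-associated, Ms4a and Gbp relatives may share signal between copies.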

How the data were processed

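Total RNA of frozen dorsal skin was measured on 8 Affymetrix mouse arrays with 3' end labelling. The table held 45101 probe sets, more than the 430A array named in the labels. The authors deposited log2 signals, a scale read from the range of the values, and Affymetrix Expression Console and MAS5 stand in the submitters' processing notes. The normalization between arrays was not given in the sources used here. Detection calls were not used here. The small number of arrays limits precision.

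The log2 values were used as deposited. Of the probe sets, 64 controls were left out, 34945 had 1 gene symbol in the platform annotation, 932 several and 9160 none listed. Probe sets had to exceed the array median on 2 or more of the 8 arrays. Genes were read from their brightest probe set by mean, giving 12420 genes. limma (version 3.58.1 in R 4.3.3; lmFit and eBayes with a trend) was fitted to all 8 arrays. Tests were two-sided at a threshold of 0.05 after Benjamini-Hochberg adjustment. SE is the moderated standard error. The fit was tested on simulated data with known changes.

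Named were the 15 largest increases and 10 largest decreases among called genes with no overlap outside keratins, their associated families, predicted genes and the lists of keratinocyte stress and interferon response, up to 4 called members of each of the other lists and up to 2 further members without a call. Not all of these were printed. Every other gene printed, marked in the text or not (Retnla, Myh1 and Adipoq among them), was chosen after its values were seen. The members and the 42 lists were chosen with earlier results of these data known. Alternatives changed the normalization, filter, probe set choice, variance model, arrays, covariates, replicate block and fold threshold.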

Additional observations from a re-analysis of the deposited data

Results flagged for a closer look

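In the fit of all probe sets, 11 probe sets without a listed gene were called by limma, 8 higher and 3 lower in DNCB, of 3444 such probe sets tested. They were outside the comparison of genes. The largest difference was that of 1428909_at, at 7.07 and 7.46 in sham and at 10.26, 10.94 and 10.15 in DNCB (difference 3.19, SE 0.33, adjusted p = 0.00636). Groups of 2 and 3 arrays are too small for a search for outlying samples.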

How the results depend on the processing

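The main count of 227 calls moved to 35 with the replicate number as a block, to 25 in a test against a 1.5-fold change, to 17 with a covariate for the spike-in level and to 452 with one for the Gapdh ratio. Leaving out 1 array at a time gave 15 to 352. The other alternatives gave 163 to 274, with 163 under array weights and 274 after quantile normalization, which put the median of all genes at 0.00 in place of 0.15. Correlations of same-numbered arrays' deviations were -0.30 and -0.12 between sham and DNCB, 0.09 and 0.20 between sham and DNCB+HY209, and 0.12, 0.28 and -0.60 between DNCB and DNCB+HY209. They were not all above 0.1, so the block is not taken as a pairing. With the spike-in covariate the sign turned for Mbp (-0.11), Erbb3 (-0.12) and Ms4a1 (0.0915), and Erbb3 was at -0.0056 after quantile normalization. None of these 3 was called. The cause of these shifts was not tested. Signals near the array medians limit the size of differences.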

Other observations

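Cotl1, an actin-binding partner of lipoxygenase, was at 7.24 and 7.01 in sham and at 9.83, 10.32 and 10.11 in DNCB, with differences from 0.39 to 3.38 over 6 probe sets. The imprinted noncoding RNA gene Meg3 was at 6.33 and 6.39 in sham and at 9.12, 8.14 and 8.07 in DNCB, a difference of 2.08 (SE 0.32, adjusted p = 0.0231), while its 7 probe sets ran from -0.32 to 3.12. Pmepa1, a feedback inhibitor of TGF-beta signalling, was at 6.22 and 5.59 in sham and at 8.24, 8.62 and 8.58 in DNCB (difference 2.58, SE 0.31, adjusted p = 0.0109), and lost its call among the fits without 1 array only without sham array 2. Cotl1, Meg3 and Pmepa1 were chosen after their values were seen, and Cotl1 and Meg3 were not called without either sham array.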
